A study of Coturnix japonica with 144 samples.

Results

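The hypothalamus of male Japanese quail was examined after the sensitization treatment, in which an adult bird spent a night enclosed with chicks. Libraries were chosen by region and sex alone: all 21 hypothalamus libraries of males, 13 from the sensitization treatment and 8 from control, of the 144 libraries of the series. Birds of both treatments were adult Coturnix japonica, virgin and kept under short days so that the gonads were regressed, hatched in the laboratory from purchased eggs. Control males were enclosed overnight without chicks, and all birds, control included, then met a pair of unfamiliar chicks before the brain was taken, so both groups had seen chicks on that morning. The whole hypothalamus was punched from frozen sections, 1 library per bird. In such bulk tissue, fewer cells of a type and less RNA per cell cannot be told apart.

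The hypothalamus holds neurons of the preoptic area and neighbouring nuclei that control parental care in vertebrates, and many of these neurons signal with neuropeptides. Urocortin 3 (UCN3) is a peptide of the corticotropin-releasing factor (CRF) family that in mammals acts on the type 2 CRF receptor. In mice, UCN3 neurons of the perifornical area have been linked to aggression towards infants and their neglect. Neurotensin (NTS) is a short peptide that in mammals modulates dopamine signalling. A second set of genes is switched on within minutes when neurons fire, among them the transcription factors FOS, FOSB, JUN, EGR1, EGR4, NPAS4, NR4A3 and KLF2, and their transcripts are commonly read as a trace of recent activity.

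Total counts ranged between 10214429 and 17178960 per library in the sensitization treatment (median 13085072) and between 10965518 and 15144634 in control (median 13672340), and an exact permutation test of their difference gave a two-sided p of 0.939. Each library was distinct from every other among the 210 pairs compared. Bird 17, a sensitized male by its label, stood apart. Its mean log2 CPM (counts scaled to library size, on a log2 scale) over 100 male-biased genes was 5.37, against 6.09 to 6.20 in the other 20 males and 5.28 to 5.50 in the 27 females. Over 20 female-biased genes it was 5.41, against 4.52 to 4.95 in the other males and 5.32 to 5.57 in females. Both gene sets were defined on the other 47 birds. The main results are therefore given with this bird and without it, and values with no mention of leaving it out include it. Males numbered 9 to 20 (8 sensitized, 4 control) and 21 to 50 (5 sensitized, 4 control) differed in 2607 of 15025 genes with treatment in the model (17.4%, edgeR, adjusted p under 0.05), and the labels do not say what these 2 number series are, so values within each series are given too. Markers of brain regions and cell types were not analysed here, as the sources used pair only 21 gene identifiers with a name or description.

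**Figure D1:**
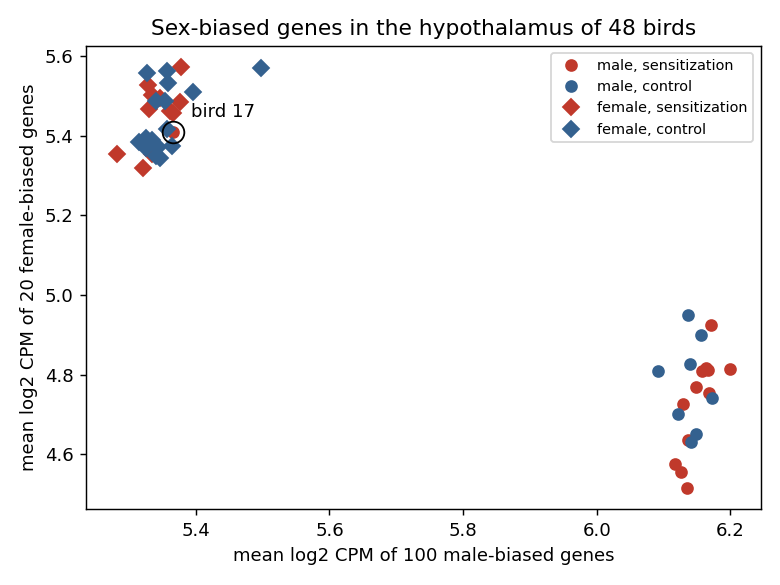
Each point is a bird of the series (24 sensitized and 24 control), placed by its mean log2 CPM over 100 male-biased genes (x axis) and 20 female-biased genes (y axis) in the hypothalamus, circles for males and diamonds for females. Bird 17, ringed, lies at 5.37 and 5.41 among the females, and the other 20 males lie at 6.09 or above on the x axis.

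Of 14580 genes tested in males, UCN3 was the only DEG at an adjusted p under 0.05, which is 0.00686% of the genes, and it was up-regulated. At an unadjusted p under 0.05 there were 698 genes (4.79%), 364 higher (2.5%) and 334 lower (2.29%) in the sensitization treatment. With the number series as a covariate, 1116 of the 14580 genes had an unadjusted p under 0.05 (edgeR), and UCN3 was again the 1 DEG. With bird 17 left out, UCN3 was again the 1 DEG among 14526 genes (0.00688%), with 670 genes (4.61%) at an unadjusted p under 0.05. DESeq2's likelihood ratio test called 3 genes, UCN3, BTG2 and ENSCJPG00005000373, and limma-voom called UCN3 alone. UCN3 was also the only gene of the 14580 for which all sensitized males lay above all control males (0.00686%), and for 0 genes did all sensitized males lie below.

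**Figure D2:**
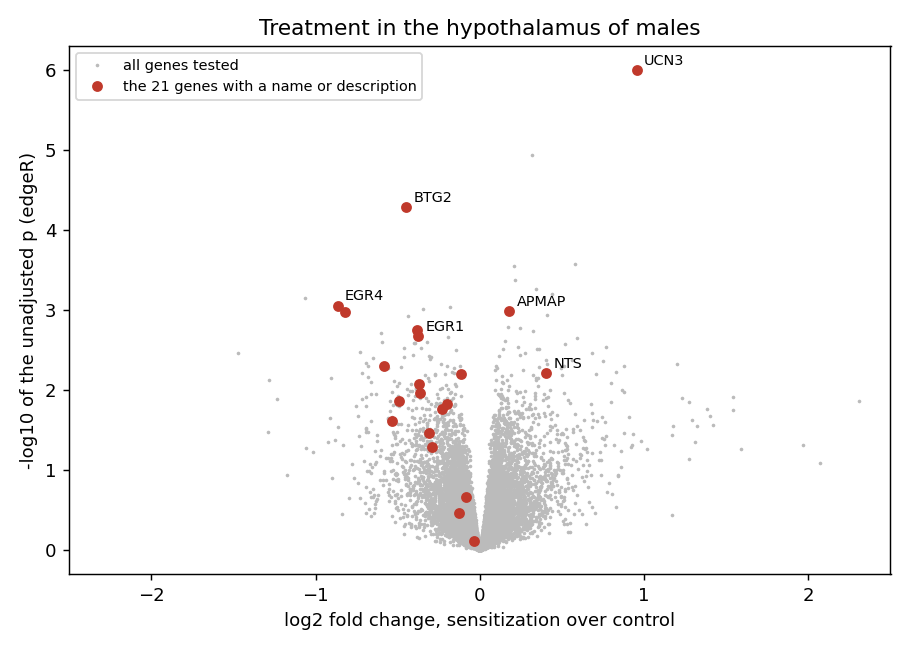
Each grey point is 1 of 14580 genes in the hypothalamus of males, with the log2 fold change of 13 sensitized over 8 control birds on the x axis and −log10 of edgeR's unadjusted p on the y axis, and the 21 genes that have a name or description are in red. UCN3 stands highest at a log2 fold change of 0.96, and 18 of the 21 red points lie left of 0, as do 7169 of all 14580 genes. The study had called these 21 genes in its own tests, in part on these males.

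UCN3 (ENSCJPG00005004068) was about 1 log2 unit higher in sensitized males. Its normalized count had a lowest value of 30.97, a median of 39.2 and a highest value of 63.2 CPM in the 13 sensitized males, against 14.7, 21.9 and 29.5 CPM in the 8 controls. The groups did not overlap, and the lowest sensitized male (bird 15) and the highest control (bird 21) were 30.97 and 29.5 CPM. The means were 42.1 ± 10.6 CPM (SD, n = 13) after sensitization and 21.7 ± 4.60 CPM (SD, n = 8) in control, from 220 to 776 reads per library. The log2 fold change was 0.96 (standard error, SE, 0.14; adjusted p = 0.0146, edgeR), and an exact permutation test over all 203490 splits of the birds gave p = 4.91e-06 (two-sided). Without bird 17, whose 51.7 CPM was the third highest value, the log2 fold change was 0.93 (SE 0.15, adjusted p = 0.0330, edgeR) and the exact permutation p = 7.94e-06. Both permutation p-values are the smallest possible with these numbers of birds and are not adjusted for the genes tested. As UCN3 was called on the same birds, they are not separate evidence. The adjusted p depended on single controls. It was 0.0570, 0.0541, 0.0524 and 0.0714 with control birds 9, 11, 12 and 31 left out in turn, at log2 fold changes of 0.89 to 0.95, and stayed under 0.05 for each of the other 17 birds left out.

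Mean UCN3 was higher in sensitized males than in controls within both number series. Among birds 9 to 20 its mean was 37.6 CPM in 8 sensitized males and 19.5 CPM in 4 controls, a difference in mean log2 CPM of 0.94 (exact permutation test, p = 0.00202, the smallest possible with these numbers). Among birds 21 to 50 the means were 49.2 CPM in 5 sensitized males and 24.01 CPM in 4 controls, a difference of 1.01 (exact permutation test, p = 0.0159). In neither series did the groups overlap, which follows from their separation over all males. UCN3 had been called on these same birds, so the tests within each series are not independent evidence. In edgeR fits of each series alone UCN3 did not pass the threshold, with an adjusted p of 0.0747 among birds 9 to 20 and 0.588 among birds 21 to 50. UCN3 was itself higher in birds 21 to 50 than in birds 9 to 20, by a log2 fold change of 0.36 (SE 0.12, adjusted p = 0.0369, edgeR, with treatment in the model). With the series as a covariate the log2 fold change between treatments was 0.99 (adjusted p = 8.91e-04, edgeR).

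NTS (ENSCJPG00005004778) did not pass the adjusted threshold in males. It had a lowest value of 65.8, a median of 83.0 and a highest value of 128 CPM in sensitized males, against 45.4, 59.0 and 92.9 CPM in controls. All 13 sensitized males exceeded the median of controls, but only 4 exceeded the highest control (bird 21), so the groups overlapped. The log2 fold change was 0.40 (SE 0.13, unadjusted p = 0.00616, adjusted p = 0.9999, edgeR). Without bird 17 it was 0.39 (unadjusted p = 0.00961). The difference in mean log2 CPM was 0.27 in the first series (p = 0.0343 by exact permutation) and 0.63 in the second (p = 0.0556 by exact permutation). The 4 sensitized males above the highest control were bird 17 (94.3 CPM), bird 47 (128 CPM), bird 48 (106 CPM) and bird 50 (117 CPM), and these were also the 4 with the highest UCN3. Birds 47, 48 and 50 belong to the second series, where UCN3 was higher. The log2 fold change of NTS between the series was 0.32 (SE 0.11, unadjusted p = 0.0119, adjusted p = 0.0616, edgeR, with treatment in the model). Whether the 2 peptides vary together among birds was not tested.

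**Figure D3:**
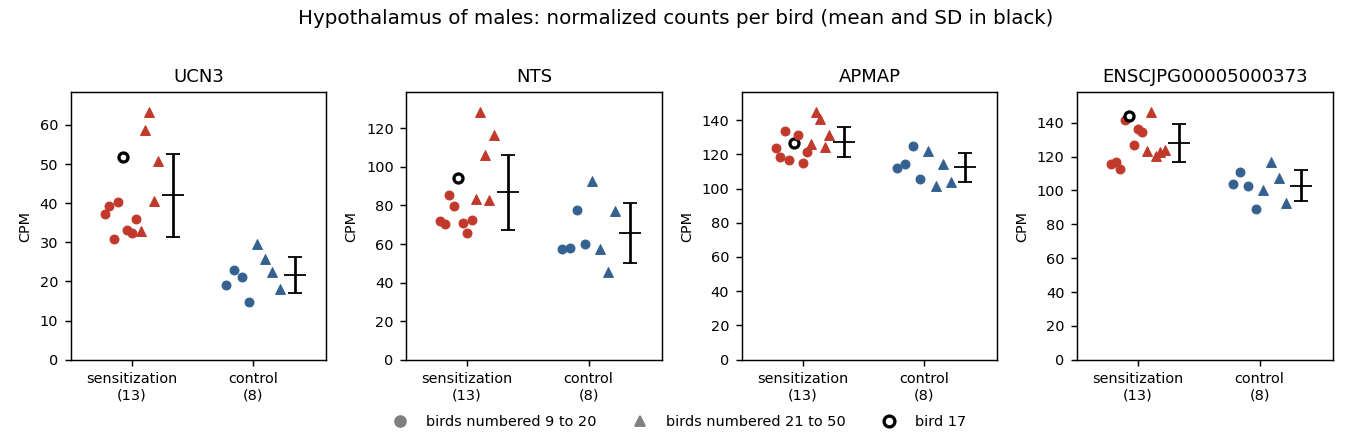
Normalized counts (CPM, y axis from 0) of UCN3, NTS, APMAP and ENSCJPG00005000373 in the hypothalamus of each male, the 13 sensitized birds left and the 8 controls right of each panel, with the mean and SD in black. Circles are birds 9 to 20, triangles birds 21 to 50, and the open circle is bird 17. The groups are separate for UCN3 (30.97 CPM and above against 29.5 CPM and below) and overlap in the other 3 panels.

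Activity-induced genes had lower mean levels in sensitized males, though none passed the adjusted threshold. Of a list of 48 activity-induced genes, 13 had an identifier, and all 13 had a negative log2 fold change, 10 of them at an unadjusted p under 0.05 (edgeR), where 2.29% of all genes were lower at that p. The median log2 fold change was −0.36 over the 13 genes and 0.0016 over all genes tested. All 21 genes with a name or description, these 13 included, have one here because the study had called them in its own tests, in part on these males, so their direction is not independent evidence. Without bird 17 the same counts held, 13 of 13 negative and 10 at an unadjusted p under 0.05 (2.13% of all genes were lower at that p), with a median of −0.32. Within the number series, 12 of 13 had a negative difference in mean log2 CPM in each, with a median of −0.37 among birds 9 to 20 and −0.25 among birds 21 to 50, where 49.9% and 50.8% of all genes tested were negative. By exact permutation tests 7 of the 13 had p under 0.05 among birds 9 to 20, where 1.76% of all genes were lower at that p, and 2 of the 13 among birds 21 to 50, where 3.28% were. ST8SIA2 is less established as an activity-induced gene than the other members, and without it 12 of 12 were negative and 10 had an unadjusted p under 0.05.

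BTG2 (ENSCJPG00005018956), an anti-proliferative transcriptional co-regulator, had the smallest p of the list. It had a lowest value of 85.2, a median of 110.1 and a highest value of 152 CPM in sensitized males, against 133, 147 and 186 CPM in controls. Sensitized males thus lay mostly below the control range: 11 of 13 were under the lowest control, and the 2 exceptions were bird 46 (139.97 CPM) and bird 50 (152 CPM). The log2 fold change was −0.45 (SE 0.09, unadjusted p = 5.17e-05, adjusted p = 0.251, edgeR), and −0.42 without bird 17 (adjusted p = 0.348). DESeq2 gave an adjusted p of 0.00852, and edgeR gave 0.0289 with bird 50 left out, whereas the other alternatives and other birds left out gave 0.0795 or more. An exact permutation test gave p = 2.31e-04, not adjusted for the genes tested.

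FOS and FOSB encode partners of JUN in the AP-1 transcription factor. FOS had a lowest value of 58.7, a median of 95.7 and a highest value of 137 CPM in sensitized males, against 105, 123 and 148 CPM in controls, a log2 fold change of −0.37 (SE 0.13, unadjusted p = 0.00849, edgeR). FOSB had 2.73, 5.81 and 9.67 CPM in sensitized males, against 6.13, 7.66 and 10.5 CPM in controls, a log2 fold change of −0.49 (SE 0.18, unadjusted p = 0.0137). The groups overlapped for both, with 8 and 9 of 13 sensitized males below the lowest control. Among birds 21 to 50 alone the log2 fold change of FOS was −0.17. JUN had 69.8, 94.2 and 111 CPM in sensitized males, against 93.3, 108 and 126 CPM in controls, and 6 sensitized males were below the lowest control. Its log2 fold change was −0.20 (SE 0.08, unadjusted p = 0.0149).

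EGR1 and EGR4 are zinc finger transcription factors of the early growth response family. EGR4 had the most negative log2 fold change of the list, −0.86 (SE 0.23, unadjusted p = 8.85e-04, adjusted p = 0.9999, edgeR), with a lowest value of 6.66, a median of 14.1 and a highest value of 33.4 CPM in sensitized males, against 20.9, 25.7 and 47.8 CPM in controls. For EGR4, 10 of 13 sensitized males were below the lowest control, all 8 sensitized males among birds 9 to 20 but only 2 of 5 among birds 21 to 50. EGR4 was itself higher in birds 21 to 50, at a log2 fold change of 0.66 (adjusted p = 0.0148, edgeR, with treatment in the model). The difference in mean log2 CPM of EGR4 between treatments was −1.16 in the first series (p = 0.00202 by exact permutation) and −0.48 in the second (p = 0.230 by exact permutation). Whether this treatment difference varied between the series was not tested. EGR1 was at 129.6, 196 and 249.8 CPM in sensitized males, against 200.3, 246 and 340.1 CPM in controls, a log2 fold change of −0.38 (SE 0.11, unadjusted p = 0.00213). The values of EGR1 overlapped, with 7 of 13 sensitized males below the lowest control, and its log2 fold change was −0.22 with 2 surrogate variables as covariates.

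NPAS4 is a neuron-specific factor induced by calcium entry, NR4A3 an orphan nuclear receptor, and KLF2 a Krüppel-like factor also found in endothelium. NPAS4 had a lowest value of 4.26, a median of 12.1 and a highest value of 23.1 CPM in sensitized males, against 13.1, 17.4 and 26.6 CPM in controls, a log2 fold change of −0.54 (SE 0.22, unadjusted p = 0.0244, edgeR). NR4A3 had 24.8, 37.97 and 47.9 CPM in sensitized males, against 28.3, 46.5 and 62.9 CPM in controls, a log2 fold change of −0.36 (SE 0.13, unadjusted p = 0.0108). For NPAS4 9 sensitized males, and for NR4A3 3, were below the lowest control. Values of KLF2 overlapped almost throughout: 24.1, 29.6 and 49.1 CPM in sensitized males, against 26.6, 32.9 and 49.2 CPM in controls, with a log2 fold change of −0.12 (SE 0.13, unadjusted p = 0.345). These 3 values moved with the birds or covariates in the fit. Among birds 21 to 50 alone the log2 fold change was −0.18 for NPAS4 and −0.014 for KLF2, and with 2 surrogate variables it was −0.13 for NR4A3.

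The remaining members of the list encode other kinds of protein. TOB1, a relative of BTG2, varied little among controls. It had a lowest value of 75.5, a median of 80.1 and a highest value of 92.3 CPM in sensitized males, against 84.7, 89.0 and 89.9 CPM in controls, and 10 of 13 sensitized males were below the lowest control although the log2 fold change was only −0.12 (SE 0.04, unadjusted p = 0.00620, edgeR). SIK1, a salt-inducible kinase, had 27.1, 32.4 and 43.4 CPM in sensitized males, against 29.7, 40.1 and 51.7 CPM in controls (log2 fold change −0.23, unadjusted p = 0.0174). RRAD, a small GTPase-like protein that restrains calcium channels, and ST8SIA2, a polysialyltransferase, had unadjusted p of 0.0508 and 0.217, at log2 fold changes of −0.29 and −0.08.

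Sensitized males varied widely among themselves in these 13 genes. Bird 17 had the lowest value of all 21 males in 9 of them and was below the lowest control in 10, and bird 13 was below the lowest control in 11. At the other end, bird 46 was below the lowest control in 0 of the 13 genes and bird 50 in 1, and both belong to the series numbered 21 to 50. For UCN3, in contrast, birds 46 and 50 had 32.8 and 50.8 CPM, both above every control. The lowest control was taken over both series. How often each bird was lowest, or below the lowest control, over all genes was not examined. The study had called these 13 genes in part on these males, so the counts per bird are a description. With treatment in the model, EGR4, NPAS4 and JUN were higher in birds 21 to 50, by log2 fold changes of 0.66, 0.56 and 0.27 (adjusted p = 0.0148, 0.0471 and 0.00166, edgeR). No other member of the list had an adjusted p under 0.05 for the series, whereas 17.4% of all genes tested did. NR4A3 and SIK1 had negative values, −0.20 and −0.15 (adjusted p = 0.293 and 0.241, edgeR).

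**Figure D4:**
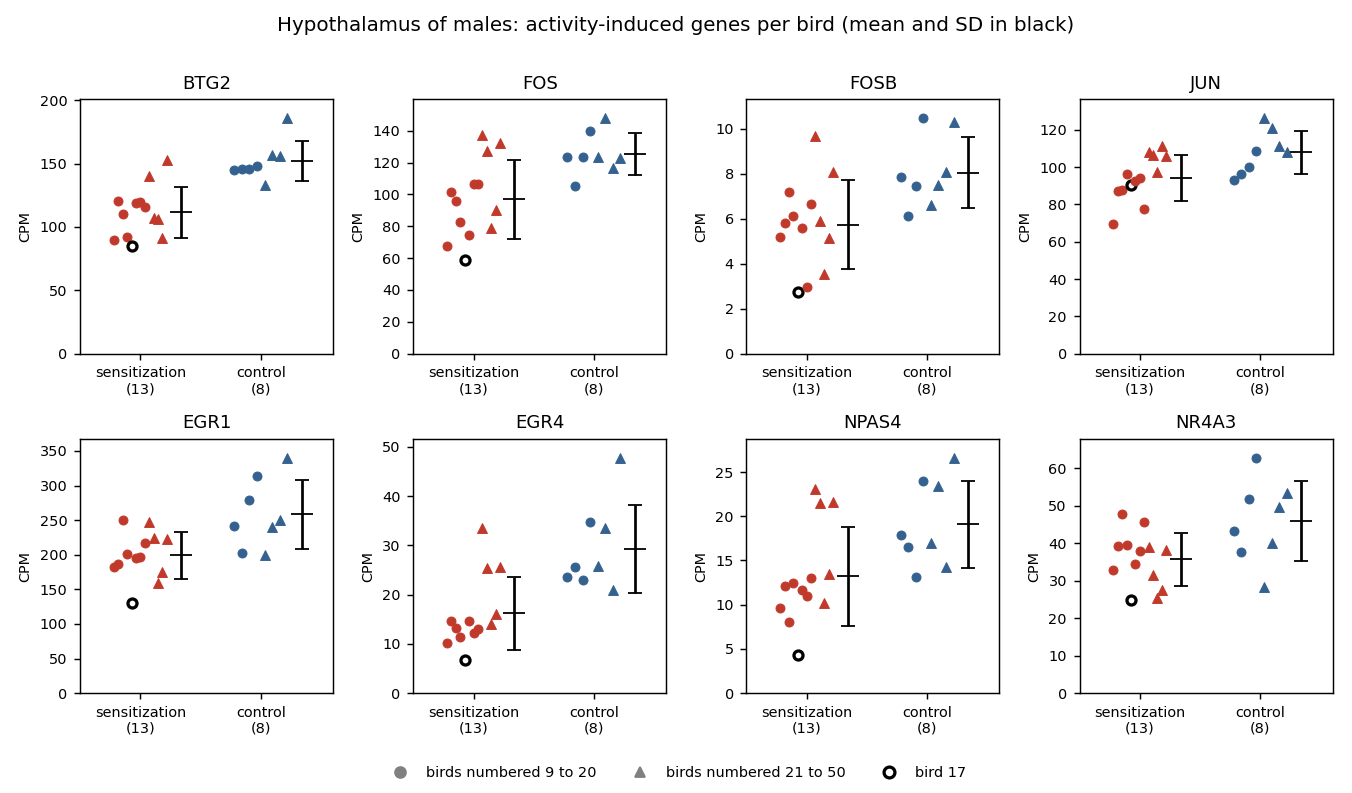
Normalized counts (CPM, y axis from 0) of 8 activity-induced genes in the hypothalamus of each male, the 13 sensitized birds left and the 8 controls right of each panel, with the mean and SD in black, circles for birds 9 to 20, triangles for birds 21 to 50 and an open circle for bird 17. Bird 17 is the lowest of all males in every panel but JUN, and the sensitized triangles reach into the control range in each panel.

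The other genes with a name or description showed mixed directions. APMAP, an enzyme-like membrane protein first described in adipocytes, had a lowest value of 115, a median of 126 and a highest value of 145 CPM in sensitized males, against 102, 113 and 125 CPM in controls. All 13 sensitized males exceeded the median of controls, 7 of them also the highest control, and the log2 fold change was 0.18 (SE 0.05, unadjusted p = 0.00104, adjusted p = 0.9999, edgeR). Of the 3 transcripts described as long non-coding RNAs, which the study had likewise called in its own tests, all had a negative log2 fold change at an unadjusted p under 0.05, where 2.29% of all genes were lower. The values were −0.38 for ENSCJPG00005007063 (p = 0.00178), −0.58 for ENSCJPG00005002600 (p = 0.00498) and −0.82 for ENSCJPG00005007066 (p = 0.00106). The last was scarce, at 2.01 ± 0.70 CPM in sensitized males (SD, n = 13) and 3.56 ± 1.31 CPM in controls (SD, n = 8). SS18L2 had a log2 fold change of −0.31 (unadjusted p = 0.0339), and PLCD1, a phospholipase C, one of −0.04 (unadjusted p = 0.767), its highest value, 146 CPM, being that of bird 17. In all, 3 of the 21 genes had a positive log2 fold change and 18 a negative one, where 7169 of all 14580 genes tested were negative. The study had called these 21 genes in part on these males, so this count is not independent evidence.

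Among the genes known only by identifier, the 2 with the smallest p in each direction did not pass the threshold. ENSCJPG00005000373 had a lowest value of 113, a median of 124 and a highest value of 146 CPM in sensitized males, against 89.0, 103 and 117 CPM in controls, and 10 of 13 sensitized males were above the highest control. Its log2 fold change was 0.32 (SE 0.06, adjusted p = 0.0841, edgeR). The adjusted p was 0.00144 with DESeq2, 0.0417 with bird 15 left out and 0.0331 with bird 29 left out (edgeR), and it was 0.148 without bird 17. ENSCJPG00005011571 had a log2 fold change of 0.58 (adjusted p = 0.825), at 4.70 ± 0.90 CPM in sensitized males (SD, n = 13) and 3.14 ± 0.61 CPM in controls (SD, n = 8). ENSCJPG00005004510 rested on 3 to 37 reads per library, with 0.80 ± 0.40 CPM in sensitized males (SD, n = 13) and 1.69 ± 0.49 CPM in controls (SD, n = 8), a log2 fold change of −1.07 (adjusted p = 0.9999). ENSCJPG00005006467 had a log2 fold change of −0.18 (adjusted p = 0.9999), and all 13 sensitized males were below the control median.

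The change in males was compared with that in females (11 sensitized, 16 control) in a model of all 48 hypothalamus libraries. The interaction of sex with treatment gave 0 DEGs of 15040 genes (0%, edgeR) and 502 genes (3.34%) at an unadjusted p under 0.05, and DESeq2 and limma-voom also gave 0. Treatment within females gave 2 DEGs (0.0133%), UCN3 and NTS, and 581 genes (3.86%) with an unadjusted p under 0.05. UCN3 was expressed in females at 39.995 ± 12.7 CPM after sensitization (SD, n = 11) and 22.1 ± 5.64 CPM in control (SD, n = 16), a log2 fold change of 0.85 (adjusted p = 0.00290, edgeR). The male minus female difference in the log2 fold change of UCN3 was 0.10, with a 95% interval of −0.34 to 0.54. For NTS, which passed the threshold in females (log2 fold change 0.59, adjusted p = 0.0268) and not in males, the difference was −0.19, with a 95% interval of −0.54 to 0.16. Thus neither neuropeptide was shown to differ between sexes, and the intervals do not exclude differences of the size of their upper and lower bounds.

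The other named genes were also compared by this interaction. None of the 21 had an unadjusted p under 0.05, and the differences ran between −0.43 for ENSCJPG00005007066 and 0.19 for PLCD1. The list of 13 had 12 negative log2 fold changes in females, 9 at an unadjusted p under 0.05 (1.94% of all genes were lower at that p), with a median of −0.29. The study had called the 21 genes in tests of both sexes together, so these females entered that choice too. Neither the direction of these genes in females nor the lack of a sex difference among them is independent evidence. Among the identifiers chosen for their small p in males, ENSCJPG00005000373 had a log2 fold change of −0.02 in females and ENSCJPG00005011571 one of 0.27. The values in females were 0.34 for ENSCJPG00005004510 and −0.02 for ENSCJPG00005006467. As all were picked on the male contrast, their male minus female differences of 0.33, 0.31, −1.40 and −0.16, in that order, are given with no test. With bird 17 left out or counted as a female the interaction again gave 0 DEGs, and 468 and 470 genes had an unadjusted p under 0.05.

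The BnST (bed nucleus of the stria terminalis), a neighbouring region, came from the same 21 males, and the comparison asked whether the change in the hypothalamus differed from that in the BnST. The interaction of region with treatment gave 0 DEGs of 14995 genes (0%, edgeR) and 186 genes (1.24%) at an unadjusted p under 0.05, and again 0 DEGs with DESeq2, with limma-voom and with the bird as a block. Treatment itself gave 0 DEGs in the BnST of males (0%), with 822 genes (5.48%) at an unadjusted p under 0.05. This came from the fit of 42 libraries of both regions, whereas the 1 DEG of the hypothalamus came from its 21 libraries alone. The numbers of DEGs in the regions thus come from unlike fits. UCN3 was scarce and variable in the BnST, at 0.25 to 18.1 CPM in sensitized males and 0.38 to 17.9 CPM in controls, with a log2 fold change of −0.05. The hypothalamus minus BnST difference for UCN3 was 1.003, with a 95% interval of −0.21 to 2.22 and an unadjusted p of 0.103 (edgeR). That fit does not use the pairing of libraries by bird. With the bird as a block the difference was 0.92 (SE 0.63, unadjusted p = 0.160, edgeR).

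In the BnST of males the log2 fold change was negative for 13 of the 13 activity-induced genes, 10 of them at an unadjusted p under 0.05 (where 2.27% of all genes were lower at that p), with a median log2 fold change of −0.42. The birds are those of the hypothalamus. The study had called these genes in its tests of 1 region or of both, in part on these males, so for some a difference between regions was part of the choice. Their hypothalamus minus BnST differences are given as a description. The most positive among the activity-induced genes was that of KLF2, 0.32. KLF2 was at 28.5 ± 2.82 CPM in the BnST of sensitized males (SD, n = 13) and 38.7 ± 5.11 CPM in that of controls (SD, n = 8).

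**Figure D5:**
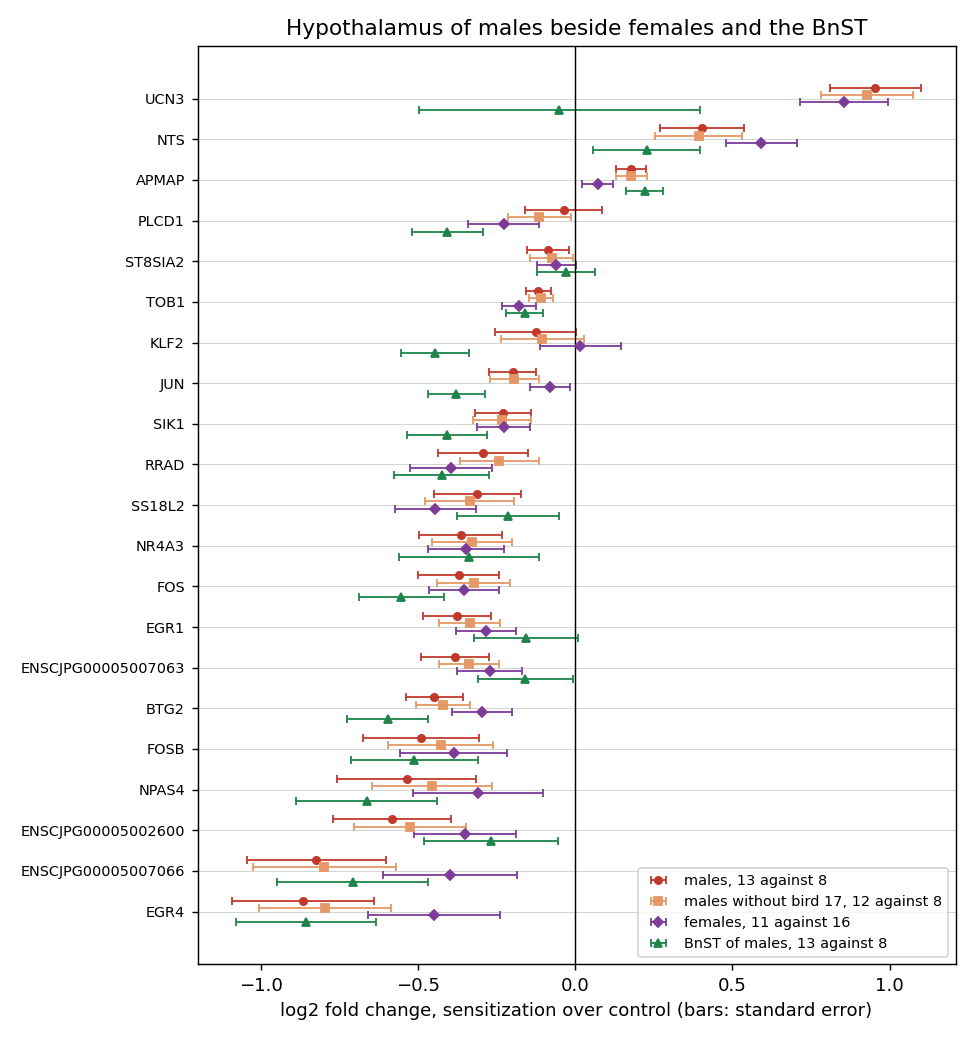
Log2 fold changes of sensitization over control (x axis, bars are standard errors) of the 21 genes with a name or description, ordered by their value in the hypothalamus of males (circles), with the same males without bird 17 (squares), the hypothalamus of females (diamonds) and the BnST of males (triangles). In males 3 genes lie right of 0 and 18 left, and UCN3 is at 0.96 in the hypothalamus and −0.05 in the BnST. The study had called these 21 genes in its own tests, in part on these males.

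The labels also give each bird a response class, as R (9 males), NR (3 males) or NA (1 male) in the sensitization treatment and as S (1 male) or NS (7 males) in control, without a key. Class S holds fewer control males than the study counted as brooding, so class NS may hold males that brooded. UCN3 had a median of 39.2 CPM in class R and 35.9 CPM in class NR, at means of 41.2 and 41.9 CPM, and all 3 males of class NR were above every control. FOS had a median of 82.8 CPM in class R and 107 CPM in class NR, and EGR1 187 and 225 CPM. Class R includes bird 17, which had the lowest FOS and EGR1 of all males. The medians of EGR4 were 14.1 and 13.3 CPM and those of JUN 94.2 and 87.6 CPM in classes R and NR. Every other member of the activity-induced list had a higher median in class NR than in class R. By the mean, EGR4 was higher in class NR (17.3 against 14.8 CPM) and JUN lower (90.6 against 94.1 CPM). With 3 birds in class NR these are descriptions, and no test was made between the classes. With only class R (9 birds) set against class NS (7 birds), the log2 fold change of UCN3 was 0.92 and its adjusted p 0.191 (edgeR).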

How the data were processed

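RNA that the authors extracted from punched brain regions was made into libraries with an NEBNext kit and sequenced at a commercial facility, base calls were processed with CASAVA 1.8.2 per the labels, and reads were mapped with HISAT2 to Coturnix_japonica_2.0 and counted per Ensembl gene with HTSeq. The strand setting is not given in the sources used here. The authors deposited raw counts of 21561 genes, without normalization. Names came from the study's supplementary tables, where 21 identifiers carry a name or description.

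The analysis used edgeR 4.0.16 under R 4.3.3: TMM normalization, filterByExpr (minimum count 10, minimum total 15), a robust quasi-likelihood F test and Benjamini-Hochberg adjustment over all genes tested, with a threshold of 0.05. A standard error was obtained as |log2 fold change|/√F. Log2 CPM used a prior count of 2. Exact permutation tests were two-sided. The procedure was tested on simulated data. Alternatives used DESeq2 1.42.0, limma 3.58.1, sva 3.50.0 (2 surrogate variables), other size factors, no filter, the number series and subsets of birds. Figures were drawn with Python 3.11.15 and matplotlib 3.10.9. Named genes were the 21, every DEG, and 2 unnamed identifiers per direction with the smallest p. The birds, lists and tests were chosen with earlier results of these data known. The hypothalamus and BnST libraries pair by bird, and their same-bird deviations from group means correlated at 0.306 to 0.526 (21 of 21 over 0.1). P-values measure the spread between birds, each a separate animal, except in the fit of hypothalamus and BnST libraries together. There both libraries of a bird entered as separate units, unless the bird was a block.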

Additional observations from a re-analysis of the deposited data

Results flagged for a closer look

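BTG2 in 1 control male lay far from the other 7. Bird 31 had 186 CPM in the hypothalamus, and its gap to the next control, relative to the range of the 8, was 0.55, over Dixon's 95% critical value for that number. This was 1 of 25 named genes examined in the 8 controls, and chance flags about 1 in 20. The 13 sensitized males were not examined with this test.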

How the results depend on the processing

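With 13 and 8 birds, the number of DEGs in males was 1 in the fit reported. It was 3 with DESeq2, 0 with males numbered up to 20 alone and 0 with class R against class NS, and between 0 and 2 when each bird was left out in turn. Males numbered 21 and above alone gave 1 DEG, ENSCJPG00005008282, and not UCN3 (adjusted p = 0.588, edgeR). Genes at an unadjusted p under 0.05 (edgeR) numbered 698 of 14580 in the fit reported and 1116 of 14580 with the number series as a covariate. There were 1129 of 14445 with males numbered 21 and above alone, and 532 of 14770 with males up to 20 alone. UCN3 kept a positive log2 fold change under all 11 alternatives, from 0.77 to 1.04, and passed the threshold in 8. Subsets hold fewer birds, and the cause of the other changes was not tested. The log2 fold change of PLCD1 changed sign, to 0.065 with males up to 20 and 0.022 with class R against NS, and ran from −0.11 to 0.024 with birds left out. That of ST8SIA2 was 0.0047 with males up to 20. Of the 25 named genes, 16 had a log2 fold change that moved by over 1.5 times under at least 1 of the settings tried, 12 of them with males numbered 21 and above alone and 7 with 2 surrogate variables. The ranges over the alternatives were −0.50 to −0.17 for FOS, −0.43 to −0.13 for NR4A3, −0.80 to −0.18 for NPAS4, −0.32 to −0.014 for KLF2 and −1.16 to −0.48 for EGR4. With 1 bird left out, KLF2 ran from −0.19 to −0.046. With the bird as a replicate block, the pairing of hypothalamus and BnST left 0 DEGs for region by treatment, with 443 genes at an unadjusted p under 0.05 against 186 without the block. It changed no other call. Sex by treatment gave 0 DEGs under each alternative, and the number series 2343 to 2607. Low counts limit ENSCJPG00005004510.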
